A study of Mus musculus with 14 samples.

Results

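Hematopoietic stem cells (HSCs) from old donors (oHSCs) were compared with HSCs from young donors (yHSCs) after both had been transplanted. The comparison holds every gene for which both groups have a value, joined by gene symbol, and comes to 1043 of the 1573 genes measured in the series and to 7 of its 14 RNA-seq libraries, 4 of oHSCs and 3 of yHSCs. Both groups came from wild-type donors without gene editing, went into lethally irradiated young CD45.1 recipients, and were sorted again from recipient bone marrow 4 months after transplantation. The labels give no donor age for these libraries, and they do not say that replicates came from separate animals. The study states that its sequencing used biological replicates, without tying libraries to animals, and p-values measure the spread between these libraries. The labels name the cells hematopoietic stem and progenitor cells, and the study's gate for HSCs is Lin- Sca1+ cKit+ CD150+ CD48-.

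HSCs sit at the top of blood formation and give rise to megakaryocytes, red cells, granulocytes, monocytes, mast cells and lymphocytes. With age their number rises while their output shifts from lymphoid toward myeloid and platelet lineages. Transplantation of old and young HSCs into young hosts places both in the same kind of marrow.

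The 1043 genes had been called higher in oHSCs by the study from these same libraries, so the direction of a change was fixed by the selection and is not independent evidence. What the values add is the lineage or function of the genes, their level, and how well the libraries of a group resemble each other. Values were read as FPKM (fragment counts divided by transcript length and library size), a scale on which levels of different genes can be compared, and tested with limma on log2(FPKM + 1), with limits of an unadjusted two-sided p of 0.05 and an absolute log2 fold change of 0.5. By this test 652 genes (62.5%) were higher, 389 of them (37.3%) also by adjusted p, and 10 (0.959%) were lower, the median log2 fold change was 0.70, and counts for every gene group below are to be read against these shares. The adjustment ran only over genes already selected on these libraries. Here and below, p and adjusted p therefore rank genes within the list and give no error rate. All oHSC libraries lay above all yHSC libraries for 518 genes (49.7%), and for 17 genes (1.63%) the order was the opposite. Dividing each library by its median ratio over the listed genes, which by construction centers a one-sided list near 0, moved the median log2 fold change to 0.07 and the counts to 124 higher and 54 lower. A gene group is therefore described by its distance from the median of all listed genes.

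The libraries were not alike in total. The listed values summed to between 71628 and 84123 FPKM in oHSCs and to between 42199 and 54607 FPKM in yHSCs, sums over selected genes that are no sequencing depth, and the depth is unknown. Replicate 3 of the yHSCs had the lowest sum and was the lowest yHSC library for 607 genes, and without it 405 genes were higher. Across genes, Pearson's r of log2(FPKM + 1) was 0.962 to 0.973 between oHSC libraries and 0.963 to 0.981 between yHSC libraries. For a gene group, measured means among the 1043 listed genes, so members that the study did not call higher are absent. Of 23 HSC identity genes 10 were measured, of 30 erythroid genes 18 and of 10 MHC class II genes 3. Of 5 multipotent progenitor genes 0 were measured.

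A motif read by GATA factors, which act in red cell, megakaryocyte and mast cell development, was looked for in promoters of the members of those lineages. The letters AGATAA, on either strand, occurred between 250 bases before and 50 bases after the start of 12.7% of all genes with a RefSeq promoter (27025 genes) and of 10.1% of the listed genes with one (682 of 1043). Of the 28 erythroid, megakaryocyte and mast cell members with a promoter, 8 held the letters. The 6 whose match lies before the start are printed below as stretches of 60 bases (RefSeq, GRCm38.p6). They run 5′ to 3′ on the strand of the gene, with the matched letters in capitals. The search window limits how far from the start a match can lie. Rhd, Kel, Cpa3 and Cd200r3 were higher in oHSCs, and Epor and Art4 did not pass the limits.
Rhd, chr4:134864466-134864525, plus strand: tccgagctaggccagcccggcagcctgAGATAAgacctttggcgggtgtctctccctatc
Kel, chr6:41704349-41704408, minus strand: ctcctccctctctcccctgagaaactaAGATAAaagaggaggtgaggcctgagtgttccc
Cpa3, chr3:20242195-20242254, minus strand: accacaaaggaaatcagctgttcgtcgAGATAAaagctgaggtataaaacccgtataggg
Cd200r3, chr16:44943612-44943671, plus strand: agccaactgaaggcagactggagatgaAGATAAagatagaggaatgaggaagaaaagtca
Epor, chr9:21963598-21963657, minus strand: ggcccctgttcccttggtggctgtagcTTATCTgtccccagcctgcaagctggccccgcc
Art4, chr6:136857672-136857731, minus strand: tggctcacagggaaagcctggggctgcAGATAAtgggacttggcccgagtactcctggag
In Rhd, Cd200r3, Cpa3, Epor and Kel the match begins 43, 39, 46, 54 and 56 bases before the start, and in Art4 104 bases before it. The motif of C/EBP factors, searched as TTNCNNAA on either strand, occurred in 44.1% of all genes and 42.4% of the listed genes with a promoter. It occurred in 10 of 16 granulocyte and monocyte members (62.5%), 5 of 7 HSC identity members (71.4%) and 6 of 13 erythroid members (46.2%). Below those shares of all genes and listed genes were megakaryocyte members with 2 of 8 (25%) and mast cell members with 2 of 7 (28.6%). A match of letters describes the promoter and does not show that a factor binds there.

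Without scaling, red cell genes had the second highest median change of the lineage groups, after mast cell genes. Of 18 measured erythroid genes 14 were higher and 0 lower, with a median log2 fold change of 1.05, 0.35 above the median of all listed genes, and the median stayed above 0 after median-of-ratios scaling (0.23). After that scaling the mast cell median (0.81) and the lymphoid median (0.64) were both above the erythroid one. Column-total scaling gave the same order, with 0.93, 0.69 and 0.38. Klf1, the transcription factor that switches on globin and other red cell genes, lies at chr8:84901928-84905291 of mm10 and measured 35.2, 42.8, 32.1 and 27.6 FPKM in oHSCs and 16.6, 9.80 and 9.06 FPKM in yHSCs. Its lowest oHSC library stood well above its highest yHSC library, with a log2 fold change of 1.496 (limma, SE 0.26, adjusted p = 0.00532). Gata1, the GATA factor of the red cell and megakaryocyte lineages, measured 20.6, 20.7, 15.5 and 16.3 FPKM against 11.3, 8.22 and 9.39 FPKM, also without overlap (log2 fold change 0.86, SE 0.22, limma adjusted p = 0.0189). The amino acid transporter gene Slc38a5 had the largest change of the group. It measured 21.9, 25.03, 22.2 and 10.9 FPKM in oHSCs and 5.53, 3.09 and 1.92 FPKM in yHSCs, so that oHSC replicate 4 was the lowest of its group and still above every yHSC library (log2 fold change 2.24, SE 0.34, limma adjusted p = 0.00223).

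The most abundant erythroid members were enzymes. The carbonic anhydrase genes Car1 and Car2 measured 1247 ± 271 FPKM (SD, n = 4) and 843 ± 159 FPKM (SD, n = 4) in oHSCs against 512 ± 54.5 FPKM (SD, n = 3) and 412 ± 117 FPKM (SD, n = 3) in yHSCs, and Blvrb, a biliverdin reductase gene, 137 ± 25.3 FPKM (SD, n = 4) against 65.4 ± 6.46 FPKM (SD, n = 3). Car1 shares 14.5% of the 50-base words of its transcript with other genes, so part of its reads may belong to them. The blood group genes Rhd (1.12, SE 0.32) and Kel (1.28, SE 0.36) rose in log2 fold change at lower levels, Rhd with overlap between the groups. The erythropoietin receptor gene Epor (0.58, SE 0.29, and -0.10 after median-of-ratios scaling) and the blood group gene Art4 (0.62, SE 0.30) did not pass the limits, although Epor did without oHSC replicate 2 (0.73) and Art4 without oHSC replicate 3 (0.73) or yHSC replicate 1 (0.82). Summed over the 18 genes, oHSC libraries held 1743 to 2695 FPKM and yHSC libraries 933.2 to 1260 FPKM, with oHSC replicate 4 the lowest of its group.

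Of 11 measured megakaryocyte and platelet genes 9 were higher, with a median log2 fold change of 0.84, 0.15 above that of all listed genes. After median-of-ratios scaling the medians of the group and of all listed genes were both 0.07, and after column-total scaling 0.18 and 0.19, so that the distance was lost. Gfi1b, a repressor needed for red cells and platelets, lies at chr2:28609450-28621982 and measured 55.4, 35.9, 44.4 and 29.1 FPKM in oHSCs and 18.5, 15.04 and 4.85 FPKM in yHSCs. The yHSC value of replicate 3 was far below the other two, yet the groups did not overlap (log2 fold change 1.75, SE 0.40, limma adjusted p = 0.0137). Pf4, which encodes platelet factor 4, had the highest level of the group, with 261.1, 386.3, 251.3 and 483.5 FPKM against 233.4, 223.4 and 171.7 FPKM. Its change was modest (log2 fold change 0.68, SE 0.28, limma adjusted p = 0.0643, and -0.14 after median-of-ratios scaling) and left the limits without oHSC replicate 2 (0.61), oHSC replicate 4 (0.50), yHSC replicate 2 (0.73) or yHSC replicate 3 (0.54), and in the fit blocked by replicate number (0.50). Gng11, a G protein subunit gene, varied little within a group, at 106 ± 6.64 FPKM (SD, n = 4) against 58.8 ± 5.30 FPKM (SD, n = 3). Vwf, which encodes von Willebrand factor, measured 1.25, 3.29, 2.13 and 2.40 FPKM against 1.44, 0.483 and 1.73 FPKM, with overlap, and passed the limits only without oHSC replicate 1 (0.74) or yHSC replicate 3 (0.74).

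Of the 10 HSC identity genes 8 were higher, with a median log2 fold change of 0.75, 0.05 above that of all listed genes. Without oHSC replicate 2 the count was 5 and without yHSC replicate 3 it was 4. The sulfotransferase gene Sult1a1, at chr7:126672865-126676432, had the largest log2 fold change of the group, with 26.0, 23.8, 18.6 and 19.6 FPKM in oHSCs and 2.38, 4.56 and 3.06 FPKM in yHSCs (log2 fold change 2.43, SE 0.24, limma adjusted p = 0.000359). Its exons overlap those of Sgf29. Ramp2 came close in log2 fold change (2.25, SE 0.54, limma adjusted p = 0.0155), with 2.55, 20.4, 4.54 and 3.18 FPKM against 0.704, 0.478 and 0 FPKM. Its level was carried by oHSC replicate 2, and 73.8% of its words are shared. Procr, which encodes the endothelial protein C receptor used to purify HSCs, measured 11.3, 13.2, 8.74 and 16.5 FPKM against 7.07, 8.25 and 3.65 FPKM (log2 fold change 0.90, SE 0.30, limma adjusted p = 0.0404) and left the limits without yHSC replicate 3 (0.61). Pdzk1ip1, a membrane protein gene active in HSCs, had 120 ± 9.51 FPKM (SD, n = 4) against 76.7 ± 6.27 FPKM (SD, n = 3), and its log2 fold change of 0.63 turned to -0.18 after median-of-ratios scaling. Slamf1, which encodes CD150 and was part of the sorting gate, was low in all libraries (0.762 to 4.21 FPKM) and overlapped between the groups, and its log2 fold change of 0.75 left the limits in the blocked fit (0.67) and without oHSC replicate 1 (0.70), 3 (0.79) or 4 (0.67) or yHSC replicate 1 (0.69) or 3 (0.46).

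Of 16 mast cell and basophil genes 9 were measured, and all 9 were higher, while 6 were without oHSC replicate 1. Their median log2 fold change was 1.17, 0.47 above that of all listed genes. Cpa3, a mast cell carboxypeptidase gene also active in progenitors, lies at chr3:20215620-20242181 and measured 425, 238.4, 301.7 and 258.2 FPKM in oHSCs and 182, 168.8 and 100.3 FPKM in yHSCs (log2 fold change 1.03, SE 0.29, limma adjusted p = 0.0248). The proteases of mature mast cells behaved otherwise. Cma1, Tpsb2 and Mcpt4 were listed at 0 in all 3 yHSC libraries, and in oHSCs their values split the libraries, with Mcpt4 at 7.56, 6.76, 2.41 and 3.77 FPKM. For each of these 3 genes oHSC replicates 1 and 2 lay above replicates 3 and 4. The medians over all listed genes lay in the same order, at 12.1 and 12.7 FPKM against 9.67 and 9.24 FPKM. Tpsab1, another tryptase gene listed at 0 in all yHSC libraries, did not share this split, with 2.34, 0.0286, 1.18 and 0.886 FPKM and its lowest oHSC value in replicate 2. In the sgCtrl oHSC libraries of the other comparison, which were normalized separately, Mcpt4 was at 0.317, 0 and 7.77 FPKM and Tpsb2 at 2.55, 0 and 34.7 FPKM, so that 1 of those 3 libraries carried nearly all of the signal, and both were at 0 in the 4 sgClu libraries. The study's HSC gate is Lin- Sca1+ cKit+ CD150+ CD48-, and the purity of the sorted cells was not tested here. In bulk RNA the number of cells of a type and the RNA of a gene per cell cannot be told apart, and neither was tested.

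Granulocyte and monocyte genes gave the highest levels of any lineage. Of 22 measured members 18 were higher, with a median log2 fold change of 0.75, 0.05 above that of all listed genes, and the group lay below all listed genes after median-of-ratios scaling (0.03 against 0.07) and column-total scaling (0.18 against 0.19). Without yHSC replicate 3 the count was 11. The primary granule genes Elane, Ctsg and Mpo led in level, and summed over the group oHSC libraries held 8916 to 12572 FPKM and yHSC libraries 4562 to 5824 FPKM. Cebpb, a transcription factor of myeloid differentiation at chr2:167688915-167690418, measured 79.1, 103.7, 66.0 and 84.6 FPKM against 35.5, 37.0 and 19.6 FPKM (log2 fold change 1.45, SE 0.28, limma adjusted p = 0.00718), and its exon overlaps Tmem189. The Fc receptor gene Fcgr3 measured 185.6, 89.5, 85.7 and 108.0 FPKM against 56.8, 42.4 and 24.2 FPKM, with oHSC replicate 1 alone far above the rest (log2 fold change 1.497, SE 0.35, limma adjusted p = 0.0142, and 12.8% of its words shared with other genes). Lilr4b, an inhibitory receptor gene of myeloid cells, was higher by a log2 fold change of 1.88 (SE 0.37) at 5.54 ± 2.56 FPKM (SD, n = 4) in oHSCs, although 20.2% of its words are shared and its exons overlap another gene. Ctsg, which encodes cathepsin G, had 1635 ± 153 FPKM (SD, n = 4) against 1032 ± 95.8 FPKM (SD, n = 3), and its log2 fold change of 0.66 turned to -0.16 after median-of-ratios scaling.

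**Figure D1:**
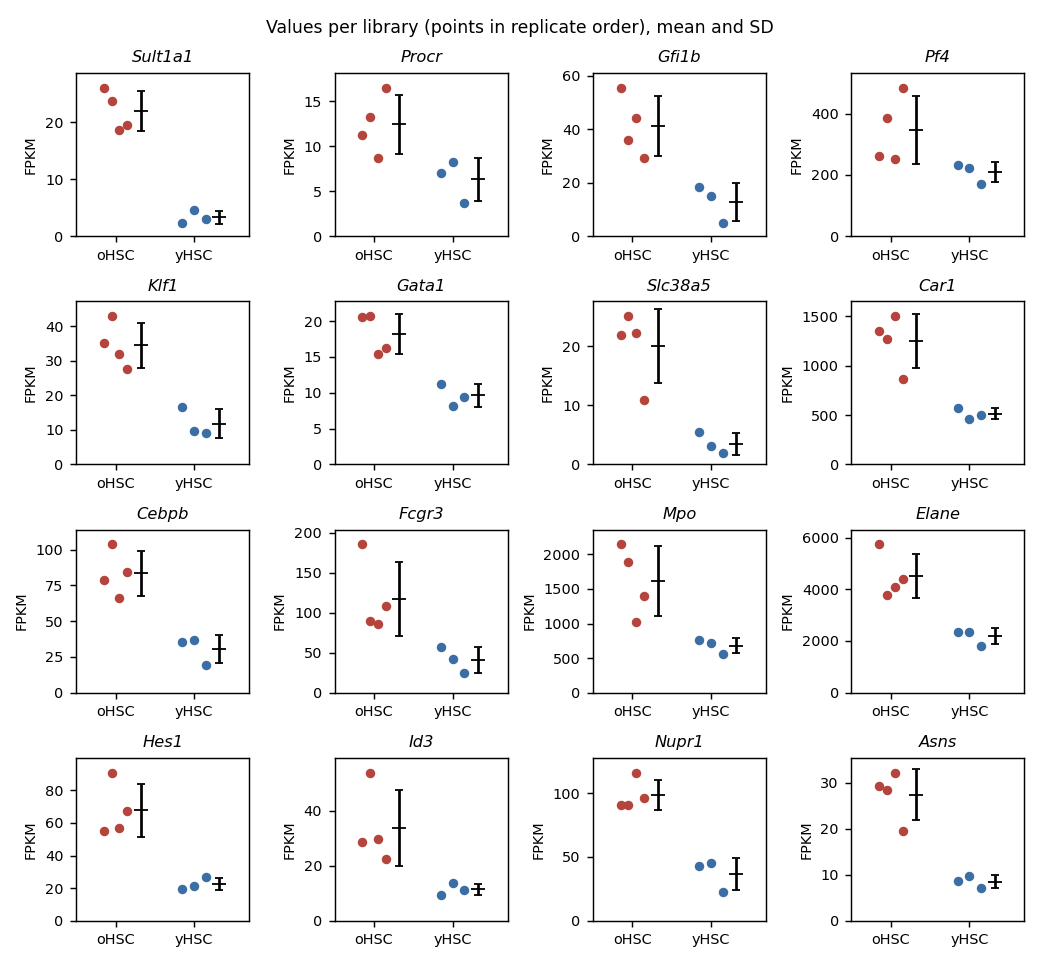
Values in FPKM (vertical axes, starting at 0) of 16 genes in each of the 4 oHSC and 3 yHSC libraries, points in replicate order, with the mean and SD beside them. In every panel the lowest oHSC library lies above the highest yHSC library, narrowly for Procr (8.74 against 8.25 FPKM) and widely for Sult1a1 (18.6 against 4.56 FPKM). The 16 genes were picked by hand, and such separation held for 518 of the 1043 listed genes (49.7%).

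Lymphoid genes were few, and their summed level was dominated by antibody genes that were each high in 2 of the 4 oHSC libraries. Of 11 measured members 7 were higher, with a median log2 fold change of 0.78, and 0.64 after median-of-ratios scaling. The immunoglobulin kappa segment Igkv1-110, at chr6:68270485-68271267, measured 1339, 0, 0.413 and 749.0 FPKM in oHSCs and 62.4, 0 and 0 FPKM in yHSCs, and the heavy chain segment Ighv1-53, at chr12:115158403-115158835, 0.335, 59.8, 0 and 183.7 FPKM against 0, 0.568 and 0 FPKM. Neither passed the limits with all libraries, the first being high in oHSC replicates 1 and 4 and the second in replicates 2 and 4, and Ighv1-53 did without oHSC replicate 1 (4.27) or replicate 3 (4.41). Much of the sequence of both is shared with other segments, 50.9% of the words of Igkv1-110 and 57.6% of those of Ighv1-53, so their values are uncertain. Gimap5, a survival gene of lymphocytes and HSCs, was steadier, with 33.5, 49.8, 46.6 and 40.9 FPKM against 21.6, 29.5 and 23.8 FPKM (log2 fold change 0.75, SE 0.23, limma adjusted p = 0.0321, and -0.05 after median-of-ratios scaling). Gzmb, which encodes granzyme B of cytotoxic cells, measured 9.58, 6.84, 1.23 and 2.20 FPKM against 0.322, 0.848 and 0 FPKM. It had the same split of oHSC replicates 1 and 2 from 3 and 4 as Cma1, Tpsb2 and Mcpt4. The library medians over all listed genes differed in that direction too.

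Other immune groups changed about as much as the list as a whole. All 3 measured genes of the MHC class II group, which serves antigen presentation, were higher, with a median log2 fold change of 0.66 that turned to -0.09 after median-of-ratios scaling, and 1 was without yHSC replicate 3. H2-Aa, a class II chain gene, measured 87.2, 101.6, 97.2 and 89.7 FPKM against 66.2, 70.9 and 43.7 FPKM (log2 fold change 0.66, SE 0.23, limma adjusted p = 0.0468, and -0.15 after median-of-ratios scaling) and left the limits without yHSC replicate 3 (0.45). Of 17 interferon response genes 10 were higher (58.8%), with a median of 0.67 that turned to -0.02 after that scaling. Isg20, an antiviral exonuclease gene, had 38.7 ± 3.56 FPKM (SD, n = 4) against 22.6 ± 1.18 FPKM (SD, n = 3), which is 0.75 in log2 fold change (limma, SE 0.20, adjusted p = 0.0211) and -0.05 after median-of-ratios scaling. The GTPase genes Tgtp1 and Tgtp2 rose more, by log2 fold changes of 1.11 and 1.36, each with overlap, but share 91.4% and 90.6% of their words with other genes.

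**Figure D2:**
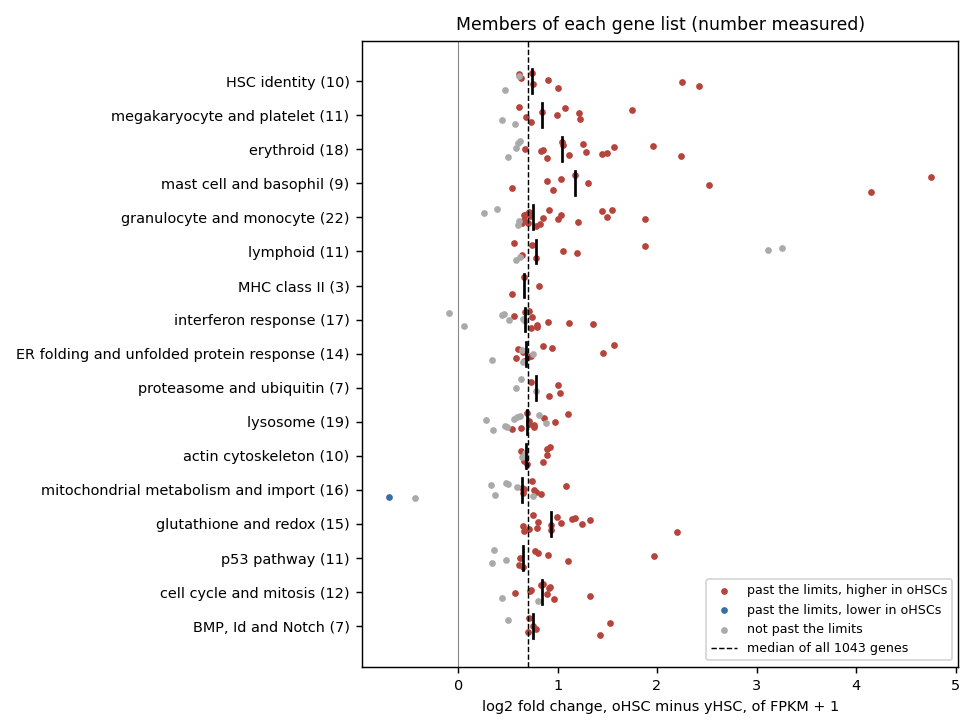
Log2 fold change, oHSC minus yHSC on the log2(FPKM + 1) scale (horizontal axis), of every measured member of 17 gene lists (rows, with the number measured), colored by whether the limits were passed, with a black bar at the median of each list. The erythroid, mast cell and glutathione medians (1.05, 1.17 and 0.93) stand to the right of the dashed line at 0.70, the median of all genes, and mt-Co2 and mt-Co3 stand furthest to the left.

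Glutathione and redox genes, which detoxify reactive and foreign molecules, formed the functional group with the highest median. Of 34 members 15 were measured, and all 15 were higher. Their median log2 fold change was 0.93, 0.24 above that of all listed genes, and 0.37 after median-of-ratios scaling. With a library left out the count was 11 to 14. Of the glutathione transferases Gstm1, at chr3:108012255-108017973, had the highest level, with 1076, 767.2, 692.6 and 685.6 FPKM against 448.5, 395.8 and 243.8 FPKM (log2 fold change 1.17, SE 0.28, limma adjusted p = 0.0146). Its neighbors Gstm2 (1.14, SE 0.24), Gstm4 (1.32, SE 0.38) and Gstm5 (0.80, SE 0.23) and the theta class gene Gstt1 (1.25, SE 0.29) rose in log2 fold change too, each without overlap, although Gstm1 shares 23.1% of its words with other genes and Gstm5 turned to -0.02 after scaling. Mt1, which encodes a metal-binding metallothionein, was among the steadiest genes, with 854, 877.2, 940.4 and 889.7 FPKM against 478.5, 460 and 609.5 FPKM, which is 0.80 in log2 fold change (limma, SE 0.20, adjusted p = 0.0189) and -0.03 after median-of-ratios scaling. Prdx6, a peroxiredoxin gene, had 0.71 and left the limits without oHSC replicate 1 (0.65), oHSC replicate 2 (0.64) or yHSC replicate 3 (0.43), and turned to -0.11 after scaling.

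Of 14 genes of protein folding in the endoplasmic reticulum and the unfolded protein response 10 were higher, with a median log2 fold change of 0.68 that turned to -0.09 after median-of-ratios scaling. Without oHSC replicate 1 the count was 6 and without yHSC replicate 3 it was 5. Asns and Nupr1 had the largest log2 fold changes of the group, and Sesn2, a stress-induced sestrin gene, the smallest, at 0.34 (SE 0.20), which did not pass the limits. Asns, the asparagine synthetase gene at chr6:7675169-7693254, measured 29.3, 28.5, 32.2 and 19.4 FPKM in oHSCs and 8.59, 9.79 and 7.05 FPKM in yHSCs (log2 fold change 1.57, SE 0.24, limma adjusted p = 0.00223). Nupr1, a stress-induced nuclear protein gene, measured 90.9, 90.8, 116.2 and 96.3 FPKM against 42.7, 45.2 and 22.6 FPKM (log2 fold change 1.45, SE 0.27, limma adjusted p = 0.00682). The chaperone gene Hspa5 had the highest level and a smaller change, 235.8 ± 49.8 FPKM (SD, n = 4) against 148.5 ± 25.8 FPKM (SD, n = 3), with overlap. Its log2 fold change of 0.65 left the limits without oHSC replicate 1 (0.56), oHSC replicate 2 (0.58) or yHSC replicate 3 (0.52) and turned to -0.17 after scaling.

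Protein turnover genes gave mixed calls. Of 7 proteasome and ubiquitin genes 4 were higher, and all 7 were in the blocked fit or without oHSC replicate 4. Ubb, a polyubiquitin gene and the third most abundant of all listed genes, measured 4422, 3941, 3745 and 3062 FPKM against 2733, 2105 and 1105 FPKM (log2 fold change 1.02, SE 0.31, limma adjusted p = 0.0314), with 55.4% of its words shared. The proteasome subunit gene Psmd11 was higher, with 116.7, 109.2, 91.3 and 76.7 FPKM against 56.9, 53.3 and 36.1 FPKM, which is 1.01 in log2 fold change (limma, SE 0.25, adjusted p = 0.0165). Of 19 lysosome genes 10 were higher (52.6%), below the share of all listed genes, and 5, 6 and 5 were without oHSC replicate 1, oHSC replicate 2 and yHSC replicate 3. Their median of 0.69 turned to -0.07 after median-of-ratios scaling. Atp6v0c, a subunit of the proton pump that acidifies lysosomes, had 179.4 ± 17.1 FPKM (SD, n = 4) against 85.9 ± 26.7 FPKM (SD, n = 3), which is 1.101 in log2 fold change (limma, SE 0.26, adjusted p = 0.0144, 12.2% of words shared).

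Of 10 actin cytoskeleton genes 8 were higher, but 3, 3 and 2 were without oHSC replicate 1, oHSC replicate 2 and yHSC replicate 3, and the median of 0.68 turned to -0.05 after median-of-ratios scaling. Pfn1, which encodes the actin-binding protein profilin, measured 2449, 2632, 2100 and 2291 FPKM against 1757, 1664 and 761.8 FPKM, so that yHSC replicate 3 was far below the other two, and the log2 fold change, 0.85 (limma, SE 0.30, adjusted p = 0.0479), left the limits without it (0.46).

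A pair of mitochondrially encoded genes went against the selected direction. Of 16 genes of mitochondrial metabolism and import 8 were higher and 1 was lower, and 5 were higher without oHSC replicate 1 or yHSC replicate 2. Their median of 0.65 turned to -0.14 after median-of-ratios scaling. The mitochondrially encoded cytochrome c oxidase gene mt-Co2 measured 906.6, 951.2, 1249 and 1291 FPKM in oHSCs and 1490, 1641 and 2214 FPKM in yHSCs (log2 fold change -0.69, SE 0.24, limma adjusted p = 0.046), and left the limits without yHSC replicate 3 (-0.53). Its neighbor mt-Co3 had 2429 ± 343 FPKM (SD, n = 4) against 3271 ± 295 FPKM (SD, n = 3) and did not pass the limits (-0.44, SE 0.21), although it did after median-of-ratios scaling (-1.26). All oHSC libraries lay below all yHSC libraries for both genes, although the study lists them as higher. Nearly all of their words occur in other transcripts (100% and 99.9%), and the pseudogene Gm28661 had almost the same values as mt-Co2, with a log2 fold change of -0.70 that was -0.54 and outside the limits without yHSC replicate 3.

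**Figure D3:**
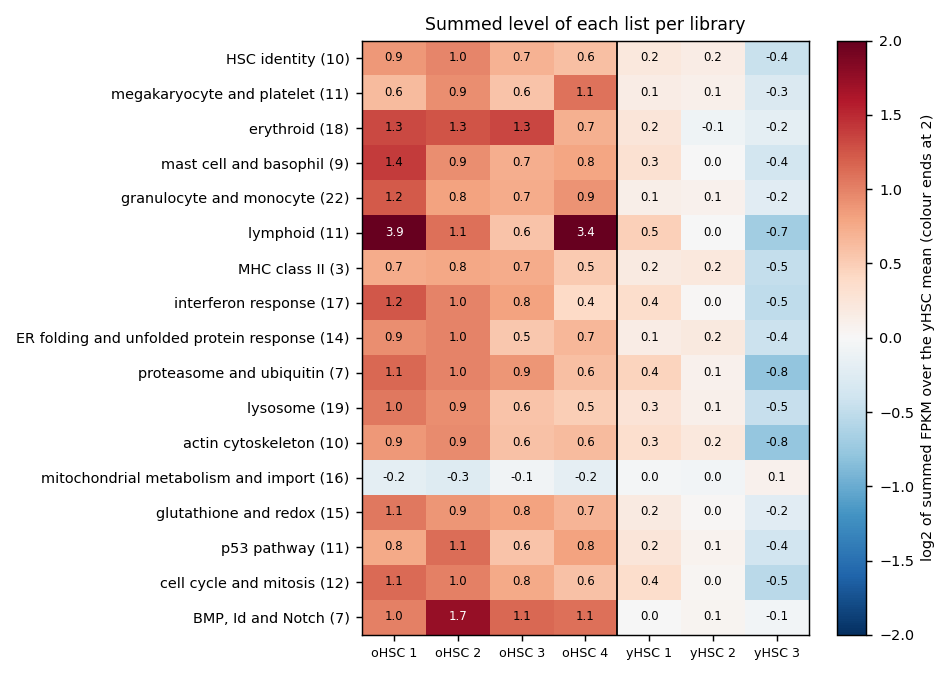
Summed FPKM of each gene list per library (columns: 4 oHSC, then 3 yHSC libraries), as log2 of its ratio to the mean of the yHSC libraries, with the color scale ending at 2. The mitochondrial list, at 5330 to 6068 FPKM in oHSCs and 6186 to 6794 FPKM in yHSCs, is the only row below 0 in all oHSC libraries. Its sum is dominated by mt-Co2 and mt-Co3, while 14 of its 16 members had a positive log2 fold change. The lymphoid list is far higher in oHSC replicates 1 and 4 than in replicates 2 and 3.

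Genes of growth arrest and of division were both on the list. Of 11 p53 pathway genes 8 were higher, with a median log2 fold change of 0.65 that turned to -0.02 after median-of-ratios scaling, and 4 and 5 were without oHSC replicate 2 and yHSC replicate 3. Plk2, a polo-like kinase gene induced by p53, rose most, with 11.01, 27.6, 16.9 and 18.3 FPKM against 4.05, 4.67 and 2.76 FPKM (log2 fold change 1.96, SE 0.30, limma adjusted p = 0.00223). Cdkn1a, which encodes the cell cycle inhibitor p21, measured 114.6, 184.2, 112.2 and 161.7 FPKM against 93.2, 84.8 and 64.5 FPKM, which is 0.80 in log2 fold change (limma, SE 0.26, adjusted p = 0.0377) and -0.02 after median-of-ratios scaling. Trp53, the p53 gene itself, had 0.65 (SE 0.24, limma adjusted p = 0.0519), left the limits without oHSC replicate 2 (0.54) or yHSC replicate 3 (0.49) and turned to -0.16 after scaling. Of 12 cell cycle and mitosis genes 10 were higher, with a median of 0.84, 0.15 above that of all listed genes, and 6 were without yHSC replicate 3. After median-of-ratios scaling the median was 0.08, against 0.07 for all listed genes, and 0 of the 12 were called higher by limma. Ccne1, which encodes cyclin E1 of the start of DNA replication, measured 6.46, 7.86, 8.42 and 7.63 FPKM against 3.81, 4.28 and 2.63 FPKM (log2 fold change 0.92, SE 0.22, limma adjusted p = 0.0153).

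Targets of BMP and Notch signals, which steer HSC fate, had the highest ratio of summed levels outside the lymphoid list, 2.43, with 127.5 to 211.4 FPKM in oHSCs and 61.2 to 65.9 FPKM in yHSCs. The ratio came largely from Hes1 and Id3, the members with the highest levels. Of 7 measured members 6 were higher, and 4 were without oHSC replicate 2. Their median log2 fold change was 0.75, 0.05 above that of all listed genes, and 0.15 against 0.07 after median-of-ratios scaling. Hes1, a repressor induced by Notch at chr16:30064384-30067796, measured 55.3, 90.9, 57.1 and 67.4 FPKM against 19.7, 21.4 and 26.7 FPKM (log2 fold change 1.52, SE 0.24, limma adjusted p = 0.00274). The Id genes encode inhibitors of helix-loop-helix factors. Id3 measured 28.8, 54.0, 29.9 and 22.7 FPKM against 9.42, 13.6 and 11.3 FPKM (log2 fold change 1.42, SE 0.30, limma adjusted p = 0.0106), and Id2 had 0.70 (SE 0.24), which turned to -0.06 after median-of-ratios scaling. For Hes1, Id3 and Plk2 alike oHSC replicate 2 was the highest library. That library was the highest oHSC library for 356 of the 1043 listed genes. It lay above the mean of the other oHSC libraries for 686 of them. Whether Hes1, Id3 and Plk2 share more than this was not tested.

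Large changes outside these groups were in genes of several kinds. The unnamed gene 1700048O20Rik was listed at 0 in all 3 yHSC libraries and measured 19.7, 17.0, 28.0 and 28.5 FPKM in oHSCs, with 19.1% of its words shared. Gm7336 (2.56, SE 0.32) and Gm15387 (2.34, SE 0.25) had large log2 fold changes too, but 100% of their words occur in other genes. Plscr2, a gene of the phospholipid scramblase family, measured 30.4, 29.1, 38.3 and 24.2 FPKM against 3.89, 2.43 and 2.46 FPKM (log2 fold change 3.01, SE 0.24, limma adjusted p = 7.51e-05). Its family member Plscr1 measured 93.1, 88.8, 75.6 and 56.4 FPKM against 28.9, 22.6 and 15.8 FPKM (log2 fold change 1.78, SE 0.27, limma adjusted p = 0.00223, 13.2% of words shared). Gdf3, a growth factor gene of the TGF-beta family, measured 37.9, 23.8, 26.1 and 21.6 FPKM against 4.56, 3.42 and 6.15 FPKM (log2 fold change 2.31, SE 0.26). Tfpi, which encodes an inhibitor of blood clotting, measured 15.7, 12.3, 10.7 and 12.8 FPKM against 3.29, 2.005 and 3.16 FPKM (log2 fold change 1.87, SE 0.23). Pseudogenes made up 128 of the 1043 genes, of which 65 (50.8%) were higher, against 547 of 847 protein-coding genes (64.6%). They were also 7 of the 10 lower genes. The ribosomal gene Rpl13 was higher, at 3026 ± 258 FPKM (SD, n = 4) against 1811 ± 42.6 FPKM (SD, n = 3), while its pseudogene Rpl13-ps6, with 82.3% of its words shared, was lower by the largest amount on the list. Rpl13 had a log2 fold change of 0.74 that turned to -0.09 after median-of-ratios scaling.

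Levels spanned a wide range, and spread fell as level rose. Mean oHSC values were under 1 FPKM for 108 genes, from 1 to under 10 FPKM for 392, from 10 to under 100 FPKM for 441, from 100 to under 1000 FPKM for 85 and at least 1000 FPKM for 17. The median coefficient of variation (CV, SD over mean) of the 4 oHSC libraries was 63.5%, 32.8%, 22.4%, 18.7% and 15.3% in these 5 ranges, and the share of genes called higher was 25.9%, 65.1%, 66.2%, 76.5% and 70.6%. Over the 543 genes with an oHSC mean of at least 10 FPKM, the median CV was 21.2% in oHSCs and 27.7% in yHSCs. In oHSCs 44 of them had a CV under 10%, among them Mt1 (4.10%), and 13 had a CV over 50%. The last were led by Ighv1-53 (142%), Igkv1-110 (124%), Cma1 (76.3%), Tpsb2 (70.2%) and Vill (56.8%), an actin-binding villin-like gene. Vill measured 10.7, 23.4, 11.9 and 5.95 FPKM against 6.16, 5.96 and 3.69 FPKM, with overlap, and its log2 fold change of 1.04 left the limits without yHSC replicate 3 (0.84). A total of 36 genes were listed at 0 in all 3 yHSC libraries, 3 of them with an oHSC mean of at least 10 FPKM.

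**Figure D4:**
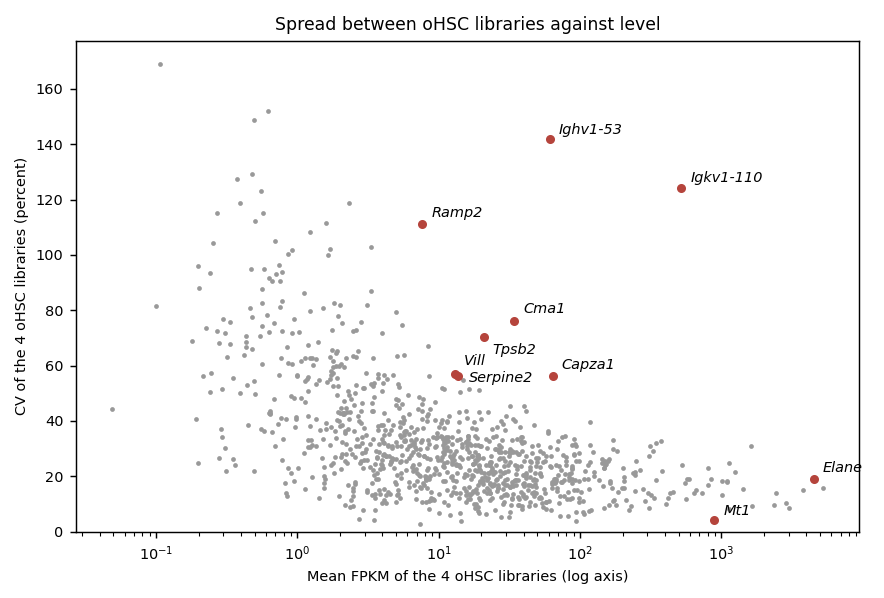
Coefficient of variation of the 4 oHSC libraries in percent (vertical axis) against their mean FPKM (horizontal log axis) for the 1043 genes, with named genes in red. Spread falls with level, and Ighv1-53 (142%) and Igkv1-110 (124%) stand far above genes of like level, while Mt1 (4.10%) lies at the bottom.

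Genes known for HSC ageing were held in part. A list of 77 genes higher in old HSCs without transplantation was taken from the same work. Of these, 22 (28.6%) were on the list, and 16 of these passed the limits. Of the 740 genes of a published HSC ageing signature 115 (15.5%) were on the list, 11.03% of it, and 80 of these (69.6%) passed, with a median log2 fold change of 0.80, 0.10 above that of all listed genes. Gpr183, a receptor gene for oxysterols in the first of these sets, measured 9.01, 4.57, 5.01 and 2.42 FPKM against 0.421, 1.496 and 0.575 FPKM (log2 fold change 1.71, SE 0.35, limma adjusted p = 0.00992). Clu, which encodes the chaperone clusterin, and Cd38, which encodes an NAD-consuming enzyme, are members of that set and did not pass, at log2 fold changes of 1.001 (SE 0.52) and 0.48 (SE 0.26). Clu measured 8.16, 4.10, 1.30 and 9.03 FPKM against 4.18, 1.64 and 0.717 FPKM, with oHSC replicate 3 below 2 of the yHSC libraries. It passed without oHSC replicate 3 (1.44) or yHSC replicate 1 (1.43), and Cd38 passed without oHSC replicate 4 (0.60). Both passed with the replicate block (0.73 and 0.60), although pairing of the libraries is not shown.

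The separate comparison of oHSCs edited with a Clu guide (sgClu) or a control guide (sgCtrl) holds 53 of the 1043 genes, and 31 of these (58.5%) were lower in sgClu oHSCs, against 50.1% of all 583 genes of that comparison, whose genes were selected on those libraries too. Shared genes that were higher in transplanted oHSCs split into 26 lower, 6 higher and 9 not called in sgClu oHSCs. Those not called in the transplanted oHSCs split into 5, 4 and 3. In total 10 of the 53 (18.9%) were higher in sgClu oHSCs, against 15.4% of all genes of that comparison. Hes1 measured 18.4, 20.3, 26.6 and 27.0 FPKM in sgClu and 50.2, 40.2 and 47.9 FPKM in sgCtrl oHSCs, and Nupr1 59.1, 41.5, 58.6 and 58.7 FPKM against 89.1, 95.7 and 94.0 FPKM, both without overlap. Gstt1 was among the genes that went the other way, with 11.3, 14.4, 17.9 and 18.3 FPKM in sgClu against 9.75, 9.98 and 10.04 FPKM in sgCtrl oHSCs.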

How the data were processed

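RNA-seq values of 7 libraries, 4 from oHSC and 3 from yHSC transplants, were analysed, with the 7 sgClu and sgCtrl libraries used only for genes shared between the comparisons. The authors made cDNA with SMART-Seq v4, trimmed reads with TrimGalore, aligned them to mm10 (GRCm38 per the labels) with Hisat2, counted with FeatureCounts and called genes with DESeq2. The deposited columns were read as FPKM, which the authors would have scaled by length and library size, although headers name no unit and TPM is possible. The gene annotation is not given in the sources used here. The deposited tables hold only genes the authors had called, so no gene outside them enters a test, and 0 value columns were left unused.

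limma (version 3.58.1, R 4.3.3) was fitted to log2(FPKM + 1) over all genes of a comparison, two-sided, with Benjamini-Hochberg adjustment, and was tested on simulated data first. A fold change on this scale understates that of low genes. As the values are not counts, the planned count test was not run. Same-numbered libraries, numbered in the sample titles, deviated together across genes (r = 0.41, 0.16 and 0.16, each above the limit of 0.1). The numbers were therefore read as pairs in the fit with the replicate number as a block, in which oHSC replicate 4 has no partner. Differently numbered libraries were not compared in this way and the labels name no pairs, so pairing is not shown. Alternatives were a pseudocount of 0.1, dropping genes with no group mean of 1 FPKM, a mean-variance trend, 2 scalings over the listed genes, calls by adjusted p, a limit of 1 on the log2 scale, the replicate block and each library left out.

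Members and gene lists were chosen with earlier results of these data known. Genes named are the 20 largest changes among genes past the limits without overlap and with an oHSC mean of at least 10 FPKM, up to 4 members per list with the highest oHSC mean, the 10 highest means and the 10 highest CVs, and Clu, Cebpb, Cd38, Trp53 and Mapk12, from which those printed were drawn, and further genes were chosen after their values were seen. Positions and transcripts come from GENCODE M21 (GRCm38), which matched 1033 symbols, by symbol or RefSeq synonym. Genes whose longest transcript has over 10% of its 50-base words in another gene (255 of 1043) are uncertain. Some genes are not reported here.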

Additional observations from a re-analysis of the deposited data

Results flagged for a closer look

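The pseudogene Rpl13-ps6 measured 27.8 FPKM in oHSC replicate 2 and 20.8 to 21.2 FPKM in the other 3 oHSC libraries, a gap of 0.94 of the group's range, which is above Dixon's 95% critical value for 4 samples. All 4 values lay far below the 3 yHSC values, at 94.6, 94.9 and 99.0 FPKM. Gm15387 measured 365.7 FPKM in oHSC replicate 1 and 275.9 to 286.4 FPKM in the other 3 oHSC libraries, a gap of 0.88 of the range. These were the only 2 of the 76 genes named in the report whose oHSC values held such a library, and chance alone gives about 1 in 20 groups.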

How the results depend on the processing

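The count of genes higher in oHSCs was 652, and it was 389 by adjusted p-value, 197 with a log2 fold change limit of 1, 152 after column-total scaling and 124 after median-of-ratios scaling, with 405 to 655 when a library was left out. The count of lower genes was 10, and it was 2 with the limit of 1, 40 after column-total scaling and 54 after median-of-ratios scaling, with 8 to 13 when a library was left out. Both scalings rest on genes selected to be higher in one group, so that they remove shared change by construction. Of the shared genes 31 were lower in sgClu oHSCs, and it was 14 with the limit of 1, 11 after column-total scaling and 10 after median-of-ratios scaling, with 22 to 32 when a library was left out. In the fit with a replicate block, 752 genes were higher, 12 were lower, and 30 of the shared genes were lower in sgClu oHSCs, whose same-numbered libraries did not deviate together (r = -0.10, 0.07 and 0.06). Among the 76 named genes the block changed the call of Pf4, Slamf1, Clu and Cd38.

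The direction turned after median-of-ratios scaling for Cdkn1a (-0.016), Ctsg (-0.16), Epor (-0.10), Gimap5 (-0.053), Gstm5 (-0.019), H2-Aa (-0.15), Hspa5 (-0.17), Id2 (-0.065), Isg20 (-0.051), Mt1 (-0.027), Pdzk1ip1 (-0.18), Pf4 (-0.14), Prdx6 (-0.11), Rpl13 (-0.088) and Trp53 (-0.16), and after column-total scaling for Ctsg (-0.0067), H2-Aa (-0.0022), Hspa5 (-0.014), Pdzk1ip1 (-0.029) and Trp53 (-0.011). Of the 64 named genes that were higher, 53 kept direction and call under every alternative other than the scalings and 26 under the scalings too. The depth is unknown, so no limit of detection can be given for genes listed at 0. A count test was not run, as the files hold no counts.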
